A study of Mus musculus with 7 samples.

Results

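The comparison set CD4 T cells activated in an immunized wild-type host against naive CD4 T cells, using 4 of the 7 miRNA arrays of the series. Its arrays were chosen by their sample titles: 2 arrays of CD44 high cells from the OVA immunized host (called WT host here) and 2 arrays of CD25- CD44 low cells (called naive). All cells were CD4+ and carried DO11.10, a transgenic T cell receptor that recognises a peptide of ovalbumin (OVA), spelled D011.10 in the titles, and all mice were of the Balb/c strain and 6 to 8 weeks old. The remaining 3 arrays, of cells from sOVA hosts, entered the model only to share the estimate of the spread between arrays; their titles call the hosts sOVA immunized.

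Naive cells came from DO11.10 Rag2+/+ mice, whereas the cells later found in the WT host came from DO11 Rag2-/- donors, in which no T cell receptor other than the transgene can be assembled. Donor CD4+ cells were purified with magnetic beads and injected into WT Balb/c mice. After 24 hours the hosts were immunized intravenously with bone marrow-derived dendritic cells that carried OVA peptide and had first been stimulated with LPS. The CD44 high cells were collected 5 days after transfer. Both kinds of cells were sorted by FACS from spleens and lymph nodes pooled over mice. Activation therefore differed between the groups together with the donor's Rag2 genotype, the transfer, the hosts and the sort, and these cannot be told apart. The protocol and the design text describe activation in vivo, although the title given to the series says in vitro. The labels do not say whether replicates came from separate pools, so the p-values measure the spread between these arrays, which may be technical.

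MicroRNAs are short RNAs that guide Argonaute proteins to messenger RNAs, mostly through bases 2 to 8 from their 5′ end, the seed, and lower the output of those messages. Each is cut from a hairpin whose arms give a 5p and a 3p product, several hairpins can lie on 1 transcript (a cluster), and miRNAs with the same seed form a family with overlapping targets. When a T cell leaves its resting state it grows, divides and becomes an effector, and its miRNA content is known to change with it.

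The array files name no miRNA, so each probe's target was read from its sequence and matched to the mature mouse miRNAs of RefSeq (GRCm38.p6). Of 342 targets tested, 162 had exactly the sequence of a mature miRNA and 4 shared its start and differed in length. The RefSeq set held 1674 mature sequences and lacked some names of the lists used below. A target without a match may therefore still be a mouse miRNA. The miRNAs that carry the result are shown 5′ to 3′ with the seed in capitals. The first set rose in the WT host and comes from 1 cluster. Its members have 3 different seeds, although the sequences resemble each other.
miR-96-5p: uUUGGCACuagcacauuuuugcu
miR-182-5p: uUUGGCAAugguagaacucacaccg
miR-183-5p: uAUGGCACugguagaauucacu

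The second set also rose and shows pairs that share a seed (miR-301a with miR-130b, miR-132 with miR-212, miR-221 with miR-222, and miR-18a with miR-18b), together with both arms of the miR-21a hairpin. The adjusted p of miR-17-5p, which lies in the same cluster as miR-18a and has another seed, missed the threshold, and it is printed for comparison.
miR-21a-5p: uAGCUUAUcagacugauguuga
miR-21a-3p: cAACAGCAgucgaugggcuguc
miR-301a-3p: cAGUGCAAuaguauugucaaagc
miR-130b-3p: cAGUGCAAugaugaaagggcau
miR-132-3p: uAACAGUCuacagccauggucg
miR-212-3p: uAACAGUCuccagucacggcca
miR-221-3p: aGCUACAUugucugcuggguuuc
miR-222-3p: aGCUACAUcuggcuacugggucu
miR-18a-5p: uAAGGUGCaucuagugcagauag
miR-18b-5p: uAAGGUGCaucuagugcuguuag
miR-17-5p: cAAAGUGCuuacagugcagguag

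The third set fell in the WT host, except for the 3 relatives printed after a faller with a shared seed (miR-181b-5p, miR-16-5p and miR-26a-5p), whose adjusted p missed the threshold.
miR-181a-5p: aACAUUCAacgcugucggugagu
miR-181c-5p: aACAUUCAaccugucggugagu
miR-181b-5p: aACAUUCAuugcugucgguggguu
miR-322-5p: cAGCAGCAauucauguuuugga
miR-16-5p: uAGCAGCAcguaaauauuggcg
miR-26b-5p: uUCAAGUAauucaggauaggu
miR-26a-5p: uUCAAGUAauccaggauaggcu
miR-340-5p: uUAUAAAGcaaugagacugauu
miR-223-3p: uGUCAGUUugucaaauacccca

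Between 346 and 467 of 1874 probes were detected on each of the 4 arrays, which means that at least 50% of a probe's spots were well above background. Levels are log2 signal relative to the array's own 75th percentile, taken over 253 probes that every one of the 7 arrays detected, so a level of 0 lies at that percentile. That percentile was 11868 and 15743 on the naive arrays, and 9281 and 3591 on the WT host arrays, so WT host replicate 2 was the dimmest of the 4. No spot was saturated. Over the tested targets, the log2 difference between the arrays of a pair had an SD of 0.60 for naive and 0.77 for WT host. Because a fixed mass of total RNA was labelled, fewer copies per cell and fewer cells that hold a miRNA cannot be told apart.

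Of the 342 targets, 64 differed between the WT host and naive cells at an adjusted p under 0.05 (18.7%), by limma with Benjamini-Hochberg adjustment. In the WT host 44 were higher (12.9%) and 20 lower (5.85%). On 259 targets (75.7%) the arrays of the groups did not overlap, and all 64 called targets were among them. The median log2 change over all tested targets was 0.27, and 201 changes were above 0. Of the 166 targets matched to mouse miRNAs, 27 were higher and 13 lower. At an unadjusted p under 0.05 there were 126 targets.

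Scaling moved this balance. With the 75th percentile taken over all probes the median change shifted from 0.27 to -0.24, and 19 targets were higher and 20 lower. With 346 to 467 of 1874 probes detected on the 4 arrays, that percentile lay at or below the edge of the detected probes. With the median of the probes detected on all arrays as the scale the median change was 0.00, with 33 higher and 25 lower. The counts also followed single arrays: leaving out naive replicate 1 gave 20 called targets and leaving out naive replicate 2 gave 18, against 27 for WT host replicate 1 and 17 for WT host replicate 2. sOVA host replicate 3, the dimmest of the 7 arrays, entered through the shared spread, and without it 158 were called (98 higher and 60 lower), including all 64. A block for slide row gave 109 calls, again including all 64. Of the 40 matched miRNAs called, 9 were called whichever of the 7 arrays was left out.

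**Figure D1:**
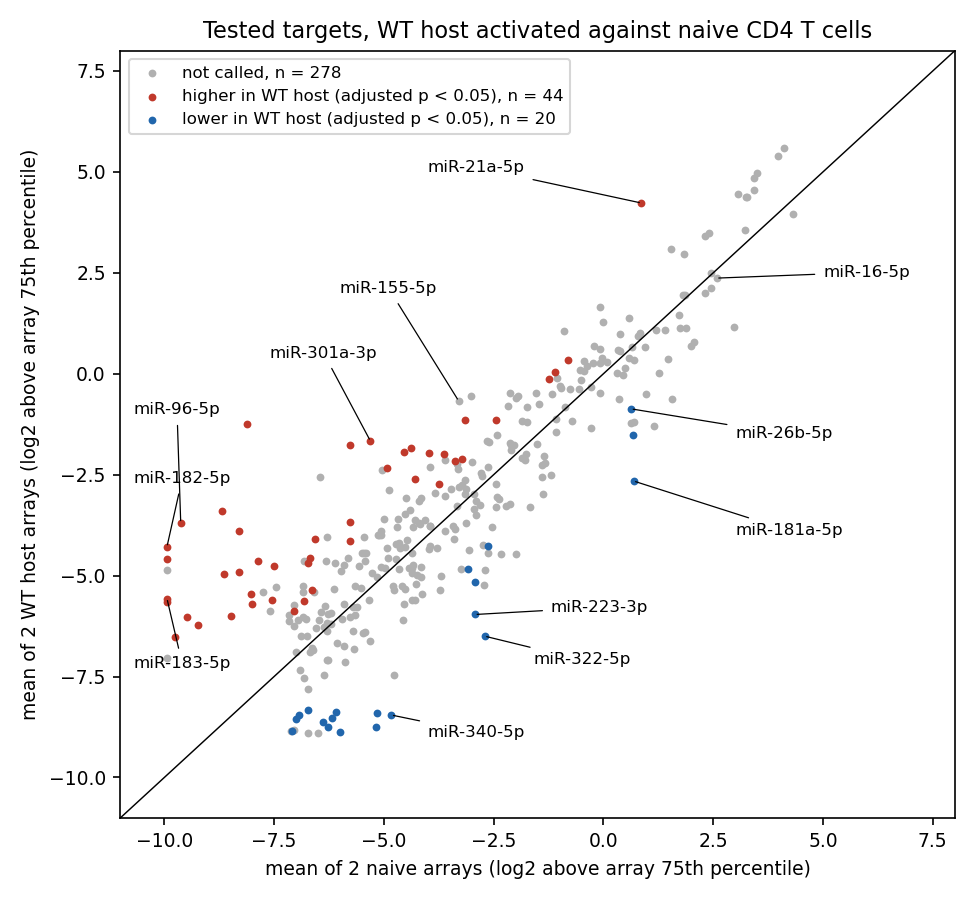
Mean level of each of the 342 tested targets on the 2 naive arrays (horizontal axis) and on the 2 WT host arrays (vertical axis), in log2 signal above the array's 75th percentile; points are targets, the line marks equal levels, red points were called higher (44), blue lower (20) and grey not called (278). Red points lie above the line and blue points below it, and miR-21a-5p (higher) and miR-181a-5p and miR-26b-5p (lower) start from naive levels above 0.

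The miR-183 cluster, miR-96, miR-182 and miR-183, rose from levels below detection; of its members, miR-182 is known to be induced by interleukin 2 and to repress Foxo1 in dividing helper T cells. The 3 hairpins lie at chr6:30165918-30169737 on the minus strand (GRCm38.p6), within the annotated gene Mirc35hg. miR-96-5p had levels of -9.21 and -10.04 on the naive arrays and -3.33 and -4.05 on the WT host arrays. miR-182-5p stood at -9.29 and -10.59 in naive cells and at -3.92 and -4.65 in the WT host. miR-183-5p stood at -9.29 and -10.59 in naive cells and at -5.40 and -5.73 in the WT host. For all 3 both WT host arrays lay far above both naive arrays, and on neither naive array was the probe well above background.

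A target in that state gives only a bound. It sets the detected group's mean against the dimmest signal detected on each array of the other group. Where the target's own signal was higher, that signal was used. The words at least refer to this bound under the reported processing. Under normexp background correction some changes were smaller than the bound, as for miR-96-5p, miR-340-5p and miR-181a-1-3p. In the WT host miR-96-5p exceeded naive cells at least 15.2-fold (limma adjusted p = 0.00107), miR-182-5p at least 10.0-fold (adjusted p = 0.0017) and miR-183-5p at least 4.13-fold (adjusted p = 0.00299). All 3 stayed called whichever array was left out and under each of the 5 other ways of scaling, background correction and spot summary that were tried. The measured log2 change of miR-96-5p was 5.94 (SE 0.42), and it was 3.89 under normexp background correction, where that of miR-182-5p was 3.53 (5.65 as reported) and that of miR-183-5p 2.82 (4.37 as reported).

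Both arms of the miR-21a hairpin rose. This miRNA, which lies at chr11:86584067-86584158 on the minus strand within Vmp1, is known to be raised in activated T cells and to repress Pdcd4. The level of miR-21a-5p was 1.01 and 0.72 on the naive arrays and 4.34 and 4.12 on the WT host arrays, so the groups were well apart and alike within. Its log2 change was 3.37 (SE 0.31, 10.3-fold, limma adjusted p = 0.0017). The opposite arm, miR-21a-3p, had levels of -8.42 and -8.16 in naive cells, with 1 of the 2 arrays detected, and -5.10 and -4.73 in the WT host. Its log2 change was 3.37 (SE 0.35, limma adjusted p = 0.00227). Both calls held without any 1 array and under all 5 alternatives of scaling and background, where the change of miR-21a-5p ranged from 2.85 to 3.33 and that of miR-21a-3p was 2.42 under normexp.

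The miR-130 and miR-301 family, which shares a seed, had 3 of its 4 listed members tested. Of these 2 were called higher, against 12.9% of all tested targets, and the median change of the 3 was 2.54 against 0.27. miR-301a-3p comes from a hairpin at chr11:87113004-87113089 on the plus strand, inside Ska2. Its level was -5.31 on both naive arrays and -1.72 and -1.61 on the WT host arrays, with hardly any spread inside either group. The log2 change was 3.64 (SE 0.35, 12.5-fold, limma adjusted p = 0.00172). miR-130b-3p, from chr16:17124061-17124142 on the minus strand, went from -4.55 and -4.20 to -1.88 and -1.79, a change of 2.54 (SE 0.32, limma adjusted p = 0.00399).

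The other arm of that hairpin, miR-130b-5p, stood at -8.58 and -8.69 in naive cells, below detection, and at -5.17 and -4.76 in the WT host. It was at least 6.27-fold higher (limma adjusted p = 0.00478), a call lost only when WT host replicate 2 was left out, with a change of 3.46 then. miR-130a-3p, the third named member, had levels of -7.00 and -6.64 in naive cells and -4.95 and -4.31 in the WT host. The groups did not overlap, as for 75.7% of all tested targets, and its change of 2.19 (95% interval 0.45 to 3.94) had an adjusted p of 0.0821 (limma). Among all 8 tested targets with this seed 7 were called higher, against 12.9% of all tested targets. The other 5 matched no sequence of the RefSeq set and lay within 2 substitutions of miR-301a-3p or miR-130b-3p. miR-301b-3p, also on the list, was absent from that set, so no target could be matched to it. Whether the 5 read the same molecules as the named members, or miR-301b-3p, was not tested. The calls of miR-301a-3p and miR-130b-3p held without any 1 array, and that of miR-130b-3p was lost when all probes set the 75th percentile (change 2.03).

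miR-132 and miR-212, which are known to be made from 1 shared precursor under the transcription factor CREB, both rose. Their hairpins lie at chr11:75173388-75173747 on the plus strand. The level of miR-132-3p was -6.83 and -6.33 in naive cells and -4.36 and -3.82 in the WT host, with no overlap. Its log2 change was 2.48 (SE 0.47, 5.60-fold, limma adjusted p = 0.0149). miR-212-3p stood at -7.90 and -8.13 in naive cells, with 1 of the 2 arrays detected, and at -6.10 and -5.31 in the WT host, a change of 2.31 (SE 0.53, limma adjusted p = 0.0298).

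miR-221 and miR-222, a clustered pair known to repress the cell cycle inhibitor p27 (Cdkn1b), also rose together. They lie at chrX:19146294-19146971 on the minus strand. miR-221-3p had levels of -4.37 and -4.22 on the naive arrays and -2.56 and -2.64 on the WT host arrays, a change of 1.70 (SE 0.29, 3.24-fold, limma adjusted p = 0.0114). The target of miR-222-3p, which shares the miRNA's start and differs in length, went from -5.88 and -5.67 to -3.59 and -3.73, a change of 2.11 (SE 0.30, 4.33-fold, limma adjusted p = 0.0064). Within each group the arrays of both miRNAs lay close together. Calls for miR-132-3p, miR-212-3p and miR-221-3p were lost without any 1 of the 4 naive and WT host arrays, and that of miR-222-3p without any of them but WT host replicate 1. Leaving these arrays out kept the direction, with changes of 2.21 to 2.76 for miR-132-3p, 1.91 to 2.70 for miR-212-3p, 1.62 to 1.77 for miR-221-3p and 2.01 to 2.22 for miR-222-3p. All 4 calls were also lost when all probes set the 75th percentile. That of miR-212-3p was also lost under normexp and without sOVA host replicate 1.

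In the miR-17 to miR-92 clusters, known for driving lymphocyte proliferation, miR-18a, miR-18b and miR-363 were higher, and no other named member of the list was called, although miR-93-3p, the opposite arm of its member miR-93-5p, was. miR-18a-5p had levels of -3.22 and -3.07 in naive cells and -1.35 and -0.95 in the WT host, a change of 1.99 (SE 0.31, limma adjusted p = 0.00964). The opposite arm, miR-18a-3p, went from -7.97 and -8.10 to -5.71 and -5.19, a change of 2.58 (SE 0.42, limma adjusted p = 0.0104), with 1 of the 2 naive arrays detected. miR-18b-5p, from the related X-linked cluster and nearly identical to miR-18a-5p, rose by 2.12 (SE 0.37, limma adjusted p = 0.0115). Whether the probes of miR-18a and miR-18b read each other's miRNA was not tested.

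miR-363-3p, a neighbour of miR-18b at chrX:52741693-52742567 on the minus strand, had levels of -3.56 and -3.69 in naive cells and -2.19 and -1.81 in the WT host. Its change was 1.62 (SE 0.27, limma adjusted p = 0.0108). By contrast, miR-17-5p went from -0.29 and -0.18 to 0.06 and 0.49, a change of 0.51 with a 95% interval of -0.16 to 1.17. The interval was -0.88 to 0.48 around -0.20 for miR-20a-5p, -1.02 to 0.48 around -0.27 for miR-19b-3p and -1.05 to 0.36 around -0.35 for miR-92a-3p. These misses do not show that the members did not change, but their intervals leave out the changes measured for both arms of miR-18a; the differences themselves were not tested. In the chr14:115043671-115044506 cluster (plus strand) 2 of 10 tested targets were called, both of them arms of miR-18a, and in the X-linked cluster 2 of 8.

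Over the whole list of 13 named members, 3 were called higher, against 12.9% of all tested targets, and none lower. Counts this small, like those per cluster, are not far from that share. The list had a median change of 0.51 that went to -0.01 when all probes set the 75th percentile. The calls of both arms of miR-18a and of miR-363-3p were lost without either naive array or WT host replicate 2 and held without WT host replicate 1, with changes of 1.79 to 2.19 for miR-18a-5p, 2.33 to 2.84 for miR-18a-3p and 1.44 to 1.81 for miR-363-3p. miR-18b-5p lost its call without any 1 of the 4 arrays (1.91 to 2.33). These 4 calls were also lost when scaling over all probes. That of miR-18a-3p was also lost under normexp. That of miR-363-3p was also lost with the median of the probes detected on all arrays as the scale.

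**Figure D2:**
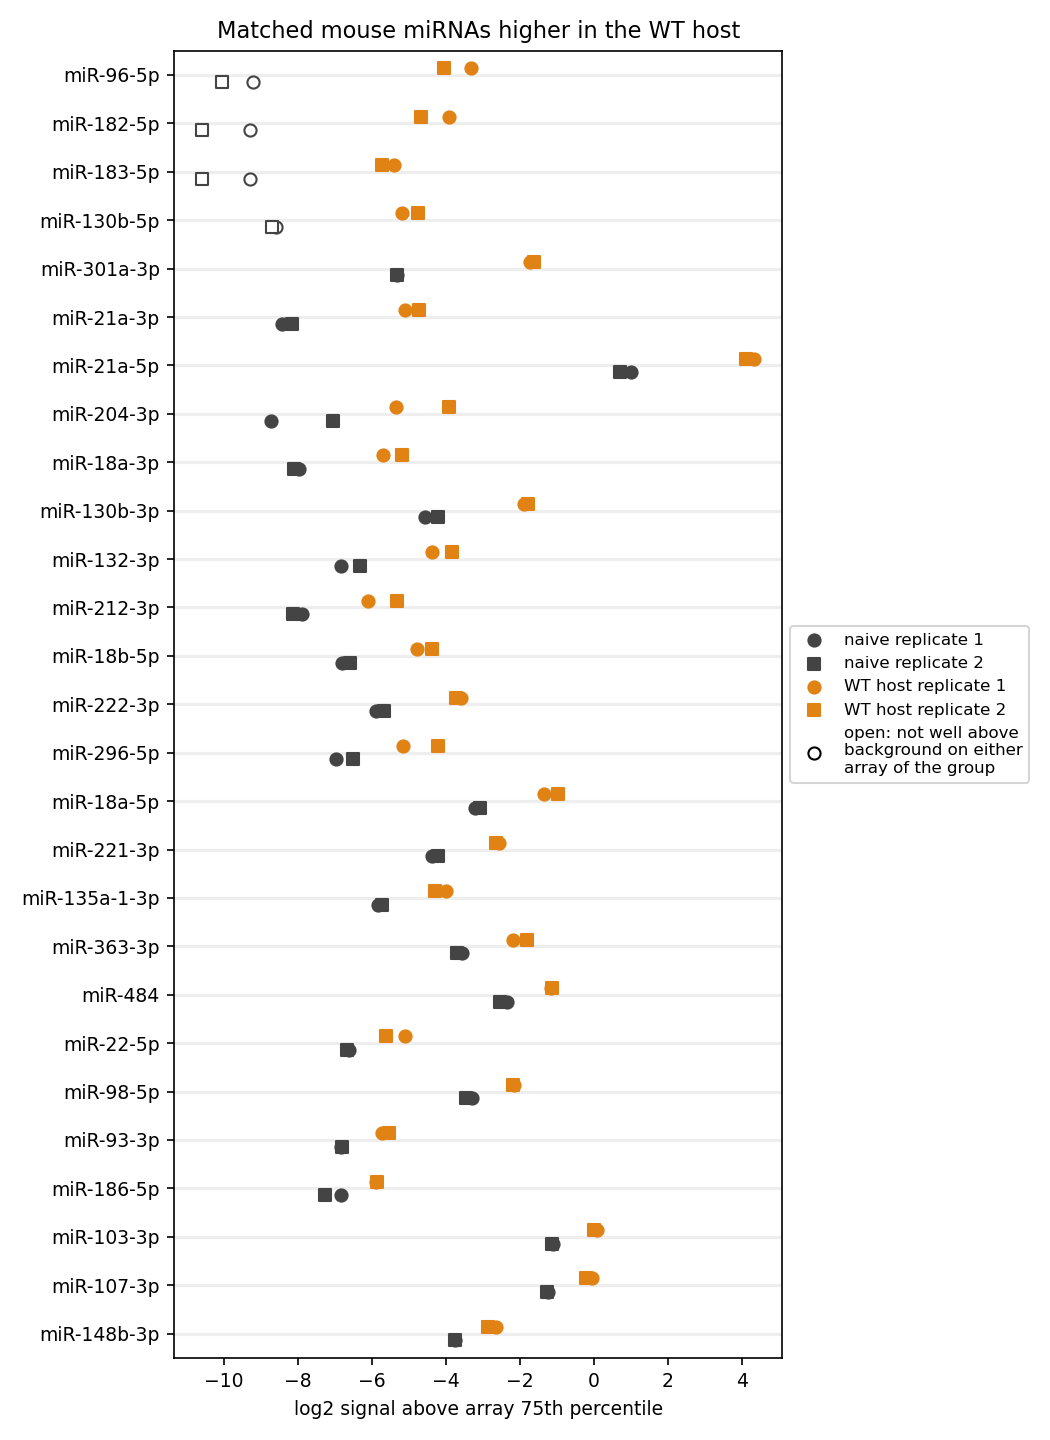
Level of the 27 matched miRNAs called higher in the WT host on each of the 4 arrays, in log2 signal above the array's 75th percentile (horizontal axis), ordered by change; grey points are naive arrays, orange points WT host arrays, circles replicate 1 and squares replicate 2, and open points mark a group in which neither array was well above background. Every orange point lies to the right of the grey points in its line, from a change of 5.94 for miR-96-5p down to 1.01 for miR-148b-3p.

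The remaining risers include miR-204-3p, with -8.72 and -7.04 in naive cells and -5.34 and -3.92 in the WT host, a change of 3.25 (SE 0.85, limma adjusted p = 0.0457; 2.41 to 4.09 without 1 array). Its target shares the miRNA's start and differs in length. miR-296-5p rose by 2.06, and its neighbours miR-296-3p (2.35) and miR-298-5p (2.26) were above their naive levels with adjusted p of 0.0596 and 0.0821 (limma). miR-103-3p and miR-107-3p, which are nearly identical and lie within Pank genes, rose by 1.15 (SE 0.25) and 1.11 (SE 0.25), with naive levels of -1.09 and -1.13 for miR-103-3p against 0.09 and 0.00 in the WT host. The others were miR-135a-1-3p (1.64), miR-484 (1.30), miR-22-5p (1.28), miR-98-5p (1.22), miR-93-3p (1.19), miR-186-5p (1.16) and miR-148b-3p (1.01). All of the calls in this paragraph were lost without any 1 of the 4 naive and WT host arrays, and each under 2 to 5 of the 5 alternatives of scaling, background and spot summary. Leaving out sOVA host replicate 1 also removed all of them but miR-135a-1-3p, and leaving out sOVA host replicate 2 all but miR-296-5p.

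Of 13 miRNAs listed as raised by T cell activation, 12 were tested and 8 were higher, against 12.9% of all tested targets, with a median change of 2.47 against 0.27. The 8 were those of the miR-183 cluster, miR-21a-5p, miR-132-3p, miR-212-3p, miR-221-3p and miR-222-3p. miR-132 with miR-212, and miR-221 with miR-222, also share a cluster, so the 8 are not independent. The list was chosen with earlier results of these data known, so its count is no independent support. miR-155-5p and miR-146a-5p, which belong to the list, did not pass. miR-155-5p, which supports effector functions and comes from Mir155hg at chr16:84714140-84714204, had levels of -3.19 and -3.41 in naive cells and -0.77 and -0.57 in the WT host. The groups did not overlap, as for 75.7% of all tested targets, and the change of 2.63 (95% interval 0.48 to 4.78) had an adjusted p of 0.0872 (limma).

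miR-146a-5p, known as a brake on NF-κB signalling through Traf6 and Irak1, went from -2.54 and -3.49 to -0.88 and -0.22, a change of 2.46 (95% interval 0.46 to 4.46, limma adjusted p = 0.0872). Here, too, the groups did not overlap, as for most tested targets. The change of miR-146b-5p was 1.44 and that of miR-214-3p 0.53. The spread behind these p-values is shared with the sOVA host arrays, and without sOVA host replicate 3 the limma adjusted p was 0.00138 for miR-155-5p, 0.00762 for miR-146a-5p and 0.0194 for miR-146b-5p. With slide row as a block it was 0.0428 for both miR-155-5p and miR-146a-5p, and both were also called when the 4 naive and WT host arrays were fitted alone, with or without the replicate block. Without 1 of these 4 arrays it was 0.203 to 0.326 for miR-155-5p and 0.181 to 0.343 for miR-146a-5p.

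Falls began with the miR-181 family, which is known to set the sensitivity of T cell receptor signalling by repressing phosphatases and is abundant in thymocytes. miR-181a-5p had levels of 0.75 and 0.62 on the naive arrays and -2.94 and -2.38 on the WT host arrays. Both WT host arrays lay far below both naive arrays, and the change was -3.34 (SE 0.61, 10.2-fold lower, limma adjusted p = 0.013). The opposite arm of its hairpin at chr1:137966455-137966541 (plus strand), miR-181a-1-3p, stood at -4.99 and -5.34 in naive cells and at -8.89 and -7.92 in the WT host. Neither WT host array showed it above background, and the fall was at least 2.92-fold (limma adjusted p = 0.0254).

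miR-181c-5p, which has the same seed, went from -3.16 and -3.00 to -4.85 and -4.81, a change of -1.75 (SE 0.45, limma adjusted p = 0.0434). miR-181b-5p, clustered with miR-181a, had levels of -4.21 and -4.11 in naive cells and -5.17 and -4.40 in the WT host. Its change was -0.62 with a 95% interval of -2.11 to 0.86, and that of miR-181d-5p was 0.33, from -0.57 to 1.23. Among the 4 members 2 were lower, against 5.85% of all tested targets, and none higher, with a median of -1.19. The calls of miR-181a-5p, miR-181a-1-3p and miR-181c-5p were lost without any 1 of the 4 naive and WT host arrays, with changes of -3.62 to -3.07, -3.72 to -2.76 and -1.83 to -1.67. Leaving out sOVA host replicate 1 also removed the calls of miR-181a-1-3p and miR-181c-5p, and leaving out sOVA host replicate 2 that of miR-181c-5p. miR-181a-5p kept its call under all 5 alternatives of scaling and background, whereas miR-181a-1-3p lost it under quantile normalization and under normexp (-1.25), and miR-181c-5p under quantile normalization and when all probes set the 75th percentile.

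Another faller was miR-322-5p, which shares its seed with miR-15 and miR-16, a family known to hold back the cell cycle. Its level was -2.66 and -2.75 in naive cells and -6.64 and -6.36 in the WT host, where 1 of the 2 arrays was well above background. The log2 change was -3.80 (SE 0.29, 13.9-fold lower, limma adjusted p = 0.00119), and it stayed called without any 1 array and under all 5 alternatives. Its X-linked neighbour miR-450a-5p went from -5.79 and -6.23 to values not well above background (-9.39 and -8.38), at least 1.63-fold lower (limma adjusted p = 0.0306). That call was lost without any 1 of the 4 naive and WT host arrays (-3.38 to -2.38), without sOVA host replicate 1 and under normexp (-0.87). miR-503-5p, the third target of the cluster at chrX:53048154-53054349 (minus strand), was not called, with a change of -1.09.

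Relatives of miR-322-5p in the miR-15 and miR-16 family were not called. miR-16-5p had levels of 2.62 and 2.54 in naive cells and 2.45 and 2.28 in the WT host, a change of -0.21 with a 95% interval of -1.36 to 0.93. The groups did not overlap, but they lay close together. The log2 difference was -0.28 for miR-15a-5p and 0.13 for miR-15b-5p, neither called. Of 5 members tested, only miR-322-5p was called, against 5.85% of all tested targets called lower, and the median was -0.28.

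miR-340-5p, from chr11:50069702-50069799 (plus strand) within Rnf130, had levels of -4.89 and -4.77 in naive cells and -8.52 and -8.39 in the WT host, where neither array detected it. The fall was at least 3.69-fold (limma adjusted p = 0.00227) and stayed called without any 1 array, but not under normexp background correction, where its change was -1.59. miR-26b-5p, from chr1:74394310-74394394 (plus strand) within Ctdsp1, went from 0.77 and 0.49 to -0.67 and -1.07, a change of -1.50 (SE 0.29, 2.83-fold lower, limma adjusted p = 0.0161). miR-350-3p went from -2.59 and -2.68 to -4.16 and -4.40, a change of -1.64 (SE 0.36, limma adjusted p = 0.0263). For all 3 the groups were apart by more than the arrays within a group. The calls of miR-26b-5p (-1.70 to -1.30) and miR-350-3p (-1.76 to -1.52) were lost without any 1 of the 4 arrays and when all probes set the 75th percentile.

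Of 11 miRNAs listed as high in naive T cells, the RefSeq set held 8, and 6 were tested. Of these, 2 were lower (miR-26b-5p and miR-125a-5p), against 5.85% of all tested targets, and none higher, with a median change of -1.84 against 0.27. miR-150-5p, which is on the list, was absent from the RefSeq set, so the counts and the median do not cover it. This list, too, was chosen with earlier results of these data known. miR-125a-5p fell from -6.38 and -6.18 to values not well above background (-9.17 and -8.35), at least 1.35-fold lower (limma adjusted p = 0.0161, lost without any 1 of the 4 arrays, with changes of -2.89 to -2.08, and under normexp, with -0.50). miR-26a-5p, with the seed of miR-26b-5p, had levels of 1.63 and 1.49 in naive cells and -0.19 and -1.05 in the WT host. That change of -2.18 was larger than that of miR-26b-5p but had a wider interval (-4.23 to -0.14) and an adjusted p of 0.118 (limma). It was 0.00558 without sOVA host replicate 3 and 0.196 to 0.439 without 1 of the 4 naive and WT host arrays. miR-101a-3p differed by -2.19 (adjusted p = 0.0743, limma), miR-342-3p by 0.20 and miR-139-5p by 1.06.

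**Figure D3:**
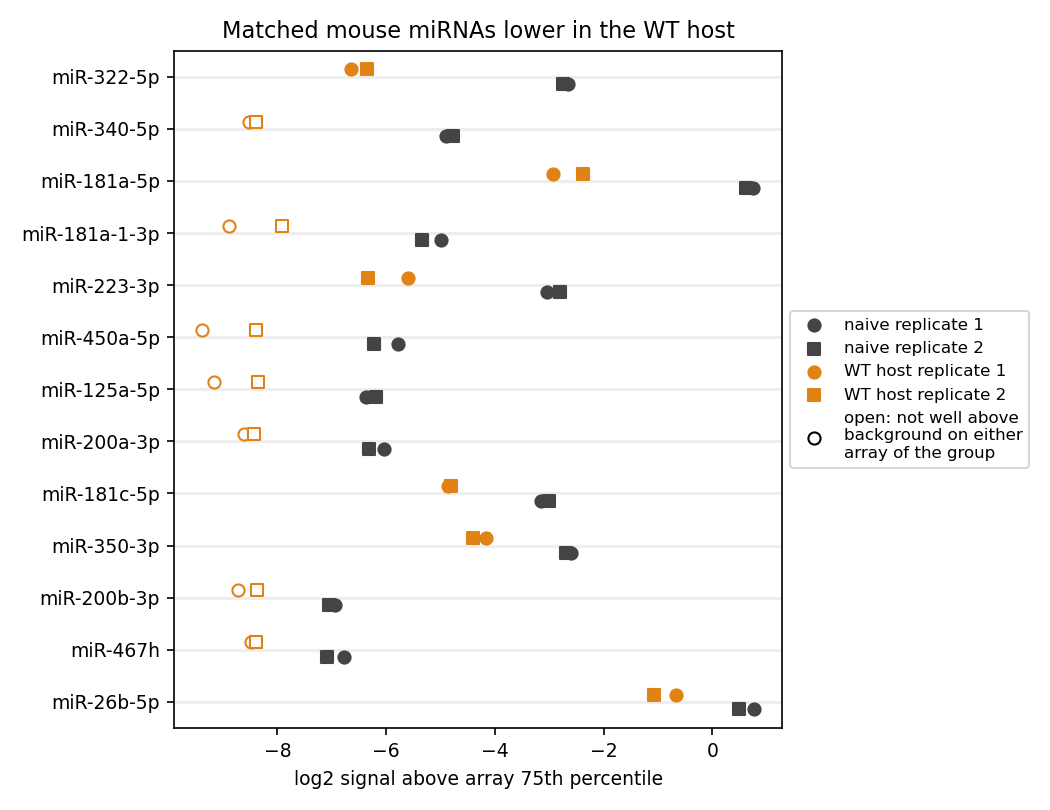
Level of the 13 matched miRNAs called lower in the WT host on each of the 4 arrays, in log2 signal above the array's 75th percentile (horizontal axis), ordered by change; grey points are naive arrays, orange points WT host arrays, circles replicate 1 and squares replicate 2, and open points mark a group in which neither array was well above background. In 7 of the 13 lines the orange points are open, and miR-181a-5p and miR-26b-5p are the lines that start above 0 in naive cells.

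Among the larger families, no member of the miR-29 family was called, and all 3 were lower on every WT host array than on either naive array, where 75.7% of all tested targets also did not overlap. miR-29 is known to repress T-bet, Eomes and interferon gamma. miR-29a-3p had levels of 3.16 and 2.77 in naive cells and 1.59 and 0.72 in the WT host, a change of -1.81 (95% interval -3.29 to -0.33, limma adjusted p = 0.0872). miR-29b-3p went from 1.25 and 1.06 to -0.69 and -1.89 (change -2.44) and miR-29c-3p from -2.04 and -2.62 to -3.94 and -4.97 (change -2.13). The limma adjusted p of miR-29a-3p was 0.0114 without sOVA host replicate 3 and 0.145 to 0.372 without 1 of the 4 naive and WT host arrays.

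The let-7 family, which restrains growth genes, had 1 of 9 members called, close to the 12.9% called higher over all tested targets. This was miR-98-5p, with levels of -3.29 and -3.46 in naive cells and -2.15 and -2.17 in the WT host. The median of the 9 was -0.32. let-7b-5p lay lowest against naive, with a change of -1.88 (0.68 and 0.69 against -0.50 and -1.90, limma adjusted p = 0.0757), and let-7i-5p lay above naive by 0.62. Of 5 listed names of the miR-30 family the RefSeq set held 3, all tested and none called, with a median of -0.46. Among all 6 tested targets with the miR-30 seed, 1 was lower (UC1004884), against 5.85% of all tested targets. Of 4 members of the clusters that hold miR-23, miR-24 and miR-27 none was called, with a median of 0.65. Of 20 names of the Dlk1-Dio3 cluster, an imprinted cluster known from stem cells and brain, 1 was tested (miR-494-3p, change 0.71, not called). None of the embryonic miR-290 and miR-302 clusters passed the detection filter.

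**Figure D4:**
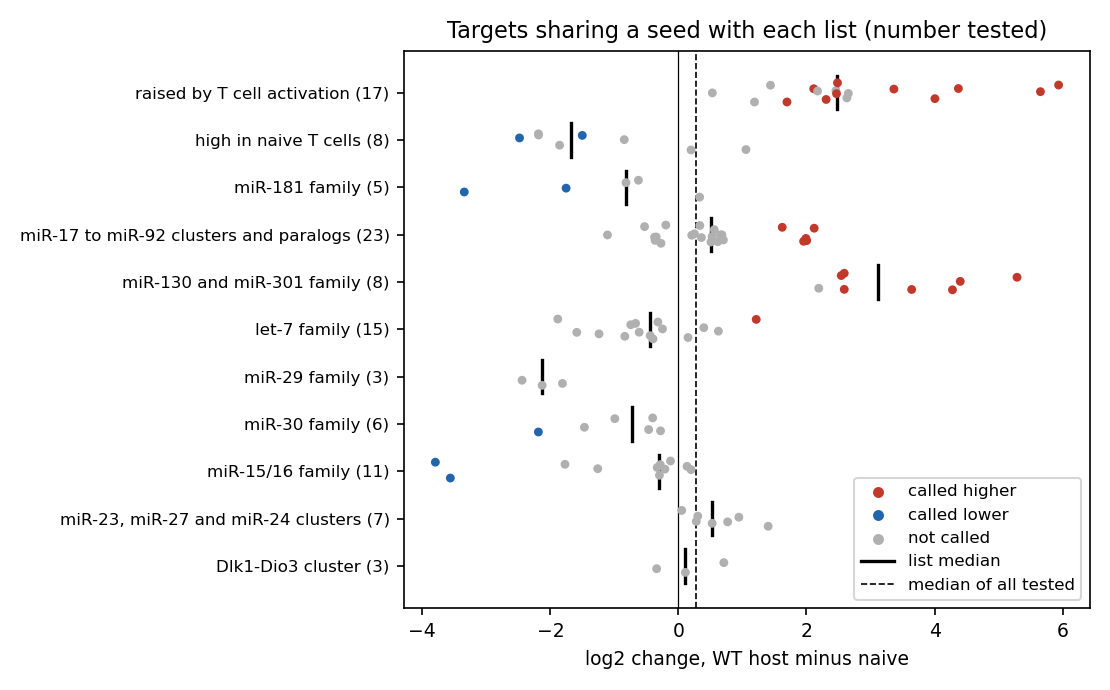
Log2 change (WT host minus naive, horizontal axis) of every tested target that shares a seed with a member of each list, with the number tested in brackets; points are targets, red called higher, blue called lower, grey not called, black bars list medians and the dashed line the median of all tested targets, 0.27. The lists of activation and of miR-130 and miR-301 lie to the right (seed medians 2.47 and 3.12), and that of miR-29 to the left (-2.13).

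Both arms of a hairpin are cut from 1 precursor, but some arms are also made from a second hairpin (miR-181a-5p, miR-16-5p, miR-19b-3p, miR-24-3p, miR-29b-3p, miR-92a-3p and miR-7a-5p), so their probes read more than 1 locus. Both arms were tested for 29 hairpins, and in 23 the changes had the same sign. In 4 hairpins both arms were called (miR-21a, miR-130b and miR-18a higher, miR-181a-1 lower), in 4 only 1 arm, and in 21 neither. The median difference between the measured changes of the arms was 0.44. The arms of miR-21a differed by 0.01, with the 3p arm detected on 1 of the 2 naive arrays. No difference is given for miR-181a-1, whose 3p arm was above background on neither WT host array. Likewise miR-101a-5p and miR-26b-3p were detected on neither WT host array, and miR-130b-5p on neither naive array. The measured changes of all these arms entered the median. The widest difference, 2.55, was that of miR-29b-1, with 0.11 for the 5p arm and -2.44 for the 3p arm, which is also made from the miR-29b-2 hairpin, neither called. The miR-7-1 arms differed by 1.95, from 1.65 for the 5p arm, which is also made from the miR-7-2 hairpin, to -0.30 for the 3p arm, neither called.

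**Figure D5:**
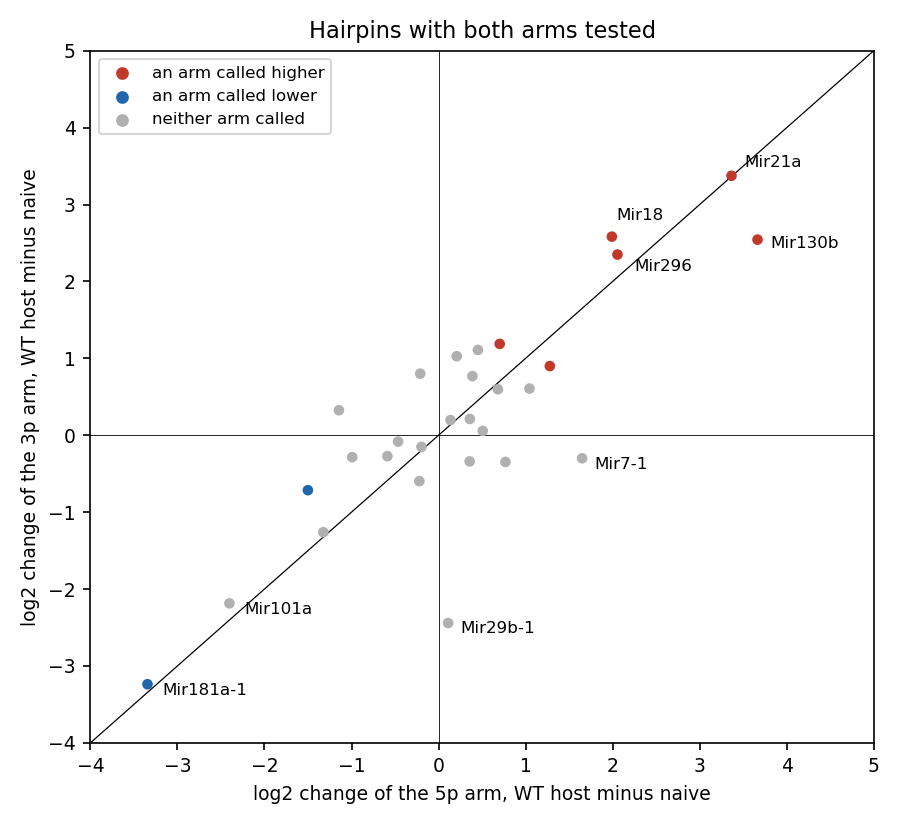
Log2 change (WT host minus naive) of the 5p arm (horizontal axis) and the 3p arm (vertical axis) of the 29 hairpins with both arms tested; points are hairpins, red where an arm was called higher, blue where an arm was called lower, grey where neither was, and the line marks equal change. Mir21a lies on the line and Mir29b-1 and Mir7-1 lie far from it. The height of Mir181a-1 is the measured change of a 3p arm that neither WT host array detected. The points of Mir101a, Mir26b and Mir130b also rest on an arm that neither array of 1 group detected.

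Some targets were detected in 1 group only. On both WT host arrays and neither naive array 13 targets were detected, of which 12 were called and 4 matched a mouse miRNA (miR-96-5p, miR-182-5p, miR-183-5p and miR-130b-5p). On both naive arrays and neither WT host array 24 were detected, of which 12 were called and 12 matched. Over all tested targets 18.7% were called. Both sets were chosen by a difference in detection, so a higher share of calls was built into the choice and is no result. With WT host replicate 2 the dimmest of the 4 arrays, targets could drop out of detection there at levels that passed elsewhere, and the part of this in the falls was not tested. On the 258 targets detected on all 4 arrays, 25 were higher and 6 lower, against 44 higher (12.9%) and 20 lower (5.85%) of all 342 tested targets.

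Markers of other cells were read from the same arrays. Both arms of miR-142a, made in blood cells, were detected on all 4 arrays, with levels of 2.22 and 1.89 in naive cells and 1.09 and 0.50 in the WT host for miR-142a-3p (not called). miR-223-3p, abundant in myeloid cells, went from -3.04 and -2.80 to -5.59 and -6.34, a change of -3.04 (SE 0.60, limma adjusted p = 0.0161), called under all 5 alternatives of scaling and background and lost without any 1 of the 4 arrays (-3.41 to -2.67). miR-451a of red cells was detected on all 4 arrays, from -3.33 to -0.97, while miR-144-3p was detected on none.

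Of 7 epithelial names, 5 were tested and 2 were lower, against 5.85% of all tested targets, both from the cluster at chr4:156054896-156055750 (minus strand). miR-200c-3p (-0.12) and miR-141-3p (-0.94) were not called. miR-200a-3p went from -6.04 and -6.32 to -8.61 and -8.43, not well above background, at least 1.45-fold lower (limma adjusted p = 0.00403, lost without naive replicate 1, with a change of -2.20, and under normexp, with -0.47). miR-200b-3p went from -6.95 and -7.04 to -8.73 and -8.38, with no bound that exceeds 1 and a sign that turned under normexp (0.04). The summed linear level of the epithelial list, in units of the 75th percentile, was 0.0881 to 0.0895 in naive cells and 0.0431 to 0.0522 in the WT host. For the leukocyte list it was 7.52 to 8.88 and 2.78 to 4.01, for miR-223 0.121 to 0.143 and 0.0124 to 0.0208, and for the erythroid list 0.283 to 0.518 and 0.103 to 0.293. miR-205-5p, miR-206-3p, miR-9-5p, miR-10a-5p, miR-10b-5p and both arms of miR-199a were detected on none of the 4 arrays, and miR-126a-3p on naive replicate 2 alone. Of the neural names, miR-128-3p was detected on all 4 (-2.95 and -2.84 in naive cells, -3.34 and -3.68 in the WT host) and not called. The part of other cells in the falls was not tested. The remaining faller, miR-467h, lay near background on the naive arrays (-6.78 and -7.09) and also turned sign under normexp (0.07). Its call and that of miR-200b-3p were lost without any 1 of the 4 arrays (-1.67 to -1.36 and -1.74 to -1.38).

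The other 24 called targets matched no mature mouse miRNA of the RefSeq set, 17 of them higher and 7 lower, and they are given by probe. That set lacks some mouse miRNAs, so a missing match does not show that a target is none. Of the 24, 15 lay within 2 substitutions of a mature miRNA of that set, and those nearest to a called miRNA went its way. UC1005422, 1 substitution from miR-301a-3p, exceeded its naive level at least 13.2-fold (limma adjusted p = 0.00107). UC1004819, 2 substitutions from miR-21a-5p, went from -5.51 and -6.04 to -1.65 and -1.89. UC1005615, 1 substitution from miR-322-5p, was at least 2.87-fold lower (limma adjusted p = 0.0149). UC1004884, 1 substitution from miR-30a-5p, fell by 2.19 (SE 0.39, limma adjusted p = 0.013), whereas miR-30a-5p itself differed by -0.46 and was not called. UC1004884 has the seed of the miR-30 family. miR-30b-5p and miR-30d-5p of that family were absent from the RefSeq set, so no target could be matched to them. The calls of UC1005422 and UC1004819 held without any 1 array. Those of UC1005615 (-3.93 to -3.19) and UC1004884 (-2.43 to -1.94) were lost without any 1 of the 4, and that of UC1005615 also under normexp (-1.39). Whether such probes read the nearby miRNA, or one that the RefSeq set lacks, was not tested.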

How the data were processed

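Per the labels' protocols, RNA was extracted with Trizol and labelled with Cy3 using an Exiqon kit, and the design text names 250 ng. The deposited scanner files hold 1-colour intensity, which the authors' software had background-subtracted and, per the file headers, left without normalization across arrays. These headers name Feature Extraction 9.5.1.1, whereas the submitters' processing notes name Agilent Feature Extraction 10.6. The deposited value table holds log2 values with equal medians (5.69 to 5.70), whose background correction is not given in the sources used here. Of its 1776 rows 4 matched a probe, so it served only as an alternative for counts.

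Control and outlier spots were left out. The 7 spots of each of 1874 probes entered as their mean log2. The scale of an array was its 75th percentile, taken over 253 probes that every one of the 7 arrays detected. The target was the reverse complement of the probe without its 10 trailing T and a leading G. Nested targets with the same start were merged, leaving 1753, and the 342 detected on all arrays of 1 or more groups were tested. limma 3.58.1 (R 4.3.3) was fitted with group means to all 7 arrays, with lmFit and eBayes, Benjamini-Hochberg adjustment over the 342 and a threshold of 0.05; the code was tested on simulated data. A list's count and median are over its named members that the RefSeq set held and that were tested, with no set test. Hairpins within 10 kb on 1 strand count as a cluster. The arrays share 1 slide and 1 scan time. Precision is limited by how few arrays there are. The same replicate numbers in both groups correlated at r = 0.19 over 342 targets, and for both groups the number equals the slide row.

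The text prints a part of the miRNAs chosen by a rule: the largest rises and falls whose groups did not overlap, the brightest members of each list, brightest targets of selected seeds, targets detected in 1 group only, the brightest targets, and opposite arms. Members, lists and this rule were chosen with earlier results of these data known.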

Additional observations from a re-analysis of the deposited data

How the results depend on the processing

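All 64 called targets kept their call when only the 4 naive and WT host arrays were fitted, with the replicate block, with slide row as a block and without sOVA host replicate 3, while further targets were added. Among the 64 called targets 2 turned sign, both under normexp background correction: miR-200b-3p (0.0366) and miR-467h (0.0665); the cause was not tested. Targets that were not called, such as miR-342-3p, miR-19b-3p and miR-200c-3p, also turned sign under some settings. Counts of calls, with those higher and lower in brackets, were 64 (44 and 20) as reported. They were 39 (19 and 20) with the 75th percentile of all probes, 41 (32 and 9) with normexp, 25 (20 and 5) of 214 targets detected on all 7 arrays and 16 (14 and 2) of 1753 with no filter. They were 129 (74 and 55) with the 4 arrays alone, 160 (100 and 60) with the replicate block on those arrays, 109 (72 and 37) with slide row as a block and 225 (101 and 124) of 1775 rows of the deposited table. No pairing is stated in the labels, and same-numbered arrays correlated at r = 0.19, so the numbers were not used to pair arrays. Leaving out 1 array gave 17 to 158 calls, 14 to 98 higher and 3 to 60 lower. Without WT host replicate 2 and sOVA host replicate 3, an alternative chosen after seeing the data, there were 124 (75 and 49). Median scaling, quantile normalization, the median of spots, a filter on naive or WT host detection and probes kept apart gave 52 to 81 calls. Of the 40 matched calls, 10 held under all 5 alternatives of scaling, background and spot summary. With 1 array left in a group, that array is assumed to vary like the others. Dim targets are limited by background on WT host replicate 2, the dimmest of the 4 arrays.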

Other observations

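A pair of called targets far from any mature mouse miRNA of the RefSeq set stood out after their values were seen. UC1006364 had levels of -9.05 and -7.18 on the naive arrays, with 1 of the 2 detected, and -2.00 and -0.50 on the WT host arrays, a change of 6.86 (SE 1.31, limma adjusted p = 0.0152); its call was lost without any 1 of these 4 arrays (5.93 to 7.80) and held under all 5 alternatives of scaling and background. UC1006410 was not detected in naive cells (-9.29 and -10.59) and stood at -5.12 and -4.03 in the WT host, at least 8.21-fold higher (limma adjusted p = 0.0485). This call was lost without any 1 of the 4 arrays and without sOVA host replicate 1. It was also lost under quantile normalization and under normexp background correction. The nearest mature mouse sequences of that set, with starts aligned, were 7 and 6 substitutions away. Since the set lacks some mouse miRNAs, this does not show that the targets are none. What RNA these probes read was not tested.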
